A study of Bos taurus with 6 samples.

Results

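On the bovine autosomes, 344 stretches of 1 Mb or more held no H3K4me3 peak in any of 3 groups of blastocysts produced in vitro. They were found by pooling the peak lists of the 3 replicates, joining peaks that overlapped or touched into 24746 regions, of which 23861 lay on the 29 autosomes, and keeping each interval of at least 1000000 bp between neighbouring autosomal regions. Chromosome ends were left out, and the 344 gaps were 1.44% of the 23832 autosomal intervals and lay among 24716 intervals when chromosome X was included. The gaps were therefore chosen on the positions of the peaks themselves, so that their lengths, their borders and the emptiness of all lists are descriptions, and no test is attached to them.

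Each replicate was a pool of approximately 11 unsexed blastocysts at 192 h (day 8) after IVF, cultured under 5% oxygen in a semi-defined medium with bovine serum albumin, and the pools mixed early, expanded, hatching and hatched embryos. The 3 pools came from 2 IVF rounds, so at least 2 replicates shared a round and the SD over replicates may understate the spread between rounds. The H3K4me3 libraries came from chromatin pulled down with 3 µg of anti-H3K4me3 antibody, and an aliquot of the same chromatin without antibody served as the input, against which the authors called the peaks. The lists held 22404, 19076 and 22060 peaks in replicates 1, 2 and 3. All samples belong to a single condition, so the comparison made here is between the gaps and the remaining autosomal sequence, with the 3 lists as replicates.

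H3K4me3 is laid down by the SET1 and MLL methyltransferase complexes and is found mainly at the promoters of active or poised genes, above all at CpG islands. Long stretches without it are usually poor in genes and in CpG islands, and many such stretches lie at the nuclear lamina in mammalian cells. A promoter that is silent and lacks a CpG island carries little of the mark, so a stretch without peaks is not necessarily a stretch without genes. Nor is each region a promoter, since the study placed most of its blastocyst peaks outside promoter regions. Which genes lie in the gaps, and how much of each gap is unresolved or repetitive sequence in the assembly, was not analysed here, because neither gene models nor sequence of UMD 3.1.1 (bosTau8) were used. Because whole embryos were pooled, a mark carried by few cells cannot be told apart from no mark.

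The gaps covered 548.2 Mb, which is 21.9% of the 2502 Mb between the first and the last region of the autosomes. For comparison, the median interval between autosomal regions was 28.7 kb, and 77.0% of the intervals were under 100 kb. The share rose to 42.8% when the weaker 50% of the peaks of each list was set aside, and to 32.7% when only regions present in all lists were kept. The lengths ran from 1000111 bp to 5.71 Mb with a median of 1.36 Mb and quartiles of 1.15 and 1.83 Mb. Of the gaps, 205 were shorter than 1.5 Mb, 68 were from 1.5 to 2 Mb, 56 from 2 to 3 Mb and 15 longer than 3 Mb. The 71 gaps of 2 Mb or more held 33.8% of all gap sequence. Around the limit there were 96 intervals from 0.8 to 0.9 Mb, 77 from 0.9 to 1.0 Mb, 60 from 1.0 to 1.1 Mb and 55 from 1.1 to 1.2 Mb, so the limit of 1 Mb marks no break. Just inside it were a gap of 1000111 bp on chromosome 6 (77140718 to 78140828) and a gap of 1001256 bp on chromosome 1 (50883258 to 51884513). Just outside it were intervals of 999063 bp on chromosome 1 (108586121 to 109585183) and of 996788 bp on chromosome 19 (1806353 to 2803140). All coordinates are on UMD 3.1.1.

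Each list taken alone had more gaps than the pool. There were 378 in replicate 1, 420 in replicate 2 and 407 in replicate 3 (mean 402 ± 21.5, SD, n = 3). Replicate 2, which has the fewest peaks, had the most gaps. The gaps took up 25.8%, 28.7% and 27.5% of the autosomal span in replicates 1, 2 and 3 (27.3% ± 1.43, SD, n = 3). Their median lengths were close, at 1.45, 1.45 and 1.43 Mb. By construction, a pooled gap lies inside a gap of each list unless it lies beyond the first or last peak of that list. The counts of 344, 342 and 343 of the 344 pooled gaps in replicates 1, 2 and 3 are therefore no measure of agreement. The converse is not fixed by the pooling. In replicates 1, 2 and 3, 46, 94 and 75 gaps held no pooled gap, because a peak of another list cut them below the limit.

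**Figure D1:**
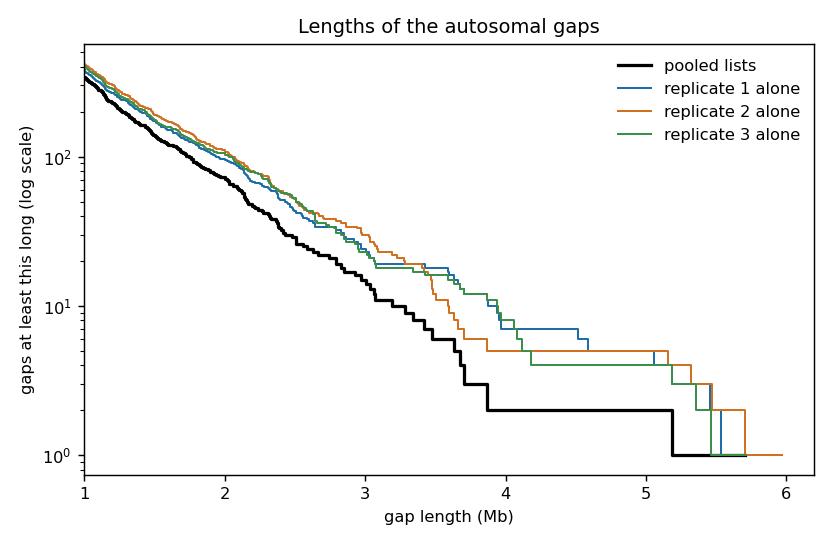
Number of autosomal gaps (vertical axis, log scale) at least as long as the length on the horizontal axis (Mb), for the pooled lists (black) and for each replicate alone (colours). The pooled line starts at 344 gaps and ends at 5.71 Mb, and the 3 lists alone start at 378 to 420 gaps and end between 5.71 and 5.97 Mb.

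The longest gap lay on chromosome 6, from 51538336 to 57246145, and was 5.71 Mb long. It measured 5.71 Mb in each of the 3 lists alone, because both of its borders had a peak in all replicates. Its left border was a region of 2812 bp with scores of 913, 289 and 501 in replicates 1, 2 and 3, and its right border a region of 6918 bp with scores of 372, 425 and 475. The score is that of the authors' peak caller, and since no source states its scale it was turned into a percentile within each list. On that scale the borders lay at means of 46.7 and 44.1 over the lists, so the longest gap was flanked by regions of middling score.

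Another of the longest gaps, of 3.70 Mb, lay directly before it, from 47825970 to 51530625 on chromosome 6. Only 7.71 kb with 2 regions, of 3842 and 2812 bp, separated the pair, and both regions had a peak in all replicates. Together the pair formed a stretch of 9.42 Mb with 6654 bp of H3K4me3 regions, the longest such stretch when gaps under 20 kb apart were strung together, a view chosen after the gaps had been listed. The stretch began at a strong and wide region of 7919 bp (47818051 to 47825969), with scores of 3100, 2964 and 3100 and a mean score percentile of 91.5.

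The second longest gap, on chromosome 24 from 14620353 to 19808797, was 5.19 Mb long and differed from the first in its borders. Both border regions were narrow, 1064 and 761 bp, and had a peak in replicates 1 and 3 but none in replicate 2. Their scores were 147 and 58.1 on the left and 74.7 and 94.2 on the right, where the lowest score in the lists is 50. In replicate 2 alone the stretch reached 5.47 Mb. Its length thus rests on weak regions, and leaving them aside can only make it longer.

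The third longest gap, on chromosome 7 from 77324733 to 81192662, was 3.87 Mb long in the pool and in each list. It opened at one of the widest border regions of all, 8230 bp at a score of 3100 in all replicates, and closed at a region of 1960 bp with scores of 684, 191 and 361. The remaining gaps among the 10 longest lay on chromosomes 1, 29, 3, 12, 1 and 12 and were 3.68, 3.64, 3.48, 3.42, 3.34 and 3.28 Mb long. Of these 10, 4 had both borders in all replicates and kept their length within 1% in each list, namely both gaps on chromosome 6 and those on chromosomes 7 and 29. The gap on chromosome 29 (13005580 to 16640806) lay between regions of 3627 and 4668 bp at mean score percentiles of 75.6 and 59.9.

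The other 6 of the 10 longest, with that on chromosome 24 among them, had a border missing from at least 1 list. The gap on chromosome 1 from 11685305 to 15363542 was 3.68 Mb in the pool and in replicates 1 and 3 but 5.16 Mb in replicate 2, which had no peak in its left border of 1084 bp. The gap on chromosome 3 from 36431340 to 39908960 opened at a region of 4605 bp with scores of 3100, 2791 and 3100 and closed at one of 514 bp with a peak in replicate 2 only (score 87.2), so that it was 3.48 Mb in replicate 2 and 3.59 Mb in the others. Both gaps on chromosome 12 had a left border in replicate 2 only, with scores of 74.9 and 108. The first of them (5723760 to 9146663) was 3.42 Mb in replicate 2 and 3.94 Mb in replicates 1 and 3. The second (37607552 to 40891253) was 3.28 and 3.97 Mb and closed at a clear region of 2775 bp with scores of 1820, 693 and 1934. A list without a border can only give a longer gap, because the pool holds the peaks of all lists. The largest change among the 10 was at the gap on chromosome 1 from 103511257 to 106849786, which was 3.34 Mb in the pool and in replicate 3 but 4.52 Mb in replicate 1 and 5.97 Mb in replicate 2, because its left border was a region of 511 bp with a peak in replicate 3 only (score 59.0).

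Over all 344 gaps, 112 (32.6%) had a peak of all 3 replicates at both borders, 170 (49.4%) at 1 border and 62 (18.0%) at none. A border present in a single replicate occurred at 155 gaps, and at 30 of them on both sides. The 112 gaps with both borders in all replicates were the same length in each list to within 0.3%, and their median length of 1.36 Mb was close to the 1.37 Mb of the others. Where a border had a peak in all replicates, its edge facing the gap varied by a median of 278 bp between the lists (394 borders, median SD 144 bp), with a largest range of 4182 bp. The position of such borders was therefore set to a small fraction of the gap length, and the uncertainty in length came from borders that a list lacked.

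Of the gaps, 131 were within 1% of their pooled length in all lists, 71 were over 1.5 times as long in at least 1 list and 35 over 2 times. Replicate 2 lengthened more gaps than the other lists, with 156 longer by over 1%, against 106 in replicate 1 and 118 in replicate 3. The largest change was 5.07-fold, at a gap on chromosome 1 from 102332348 to 103510745, which was 1.18 Mb in the pool and 4.52, 5.97 and 2.63 Mb in replicates 1, 2 and 3. Both of its borders were single-replicate regions, with a score of 59.0 on the right, in replicate 3, and of 75 on the left, in replicate 1. The next, 4.60-fold, was a gap on chromosome 12 from 59144467 to 60302820, which was 1.16 Mb in the pool and in replicate 1, 5.32 Mb in replicate 2 and 4.18 Mb in replicate 3. The following one lay on chromosome 16 from 11036520 to 12190518, with 1.15 Mb in the pool and in replicate 2, 5.05 Mb in replicate 1 and 4.08 Mb in replicate 3. All 6 borders of these 3 gaps were present in a single list and scored under 100.

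**Figure D2:**
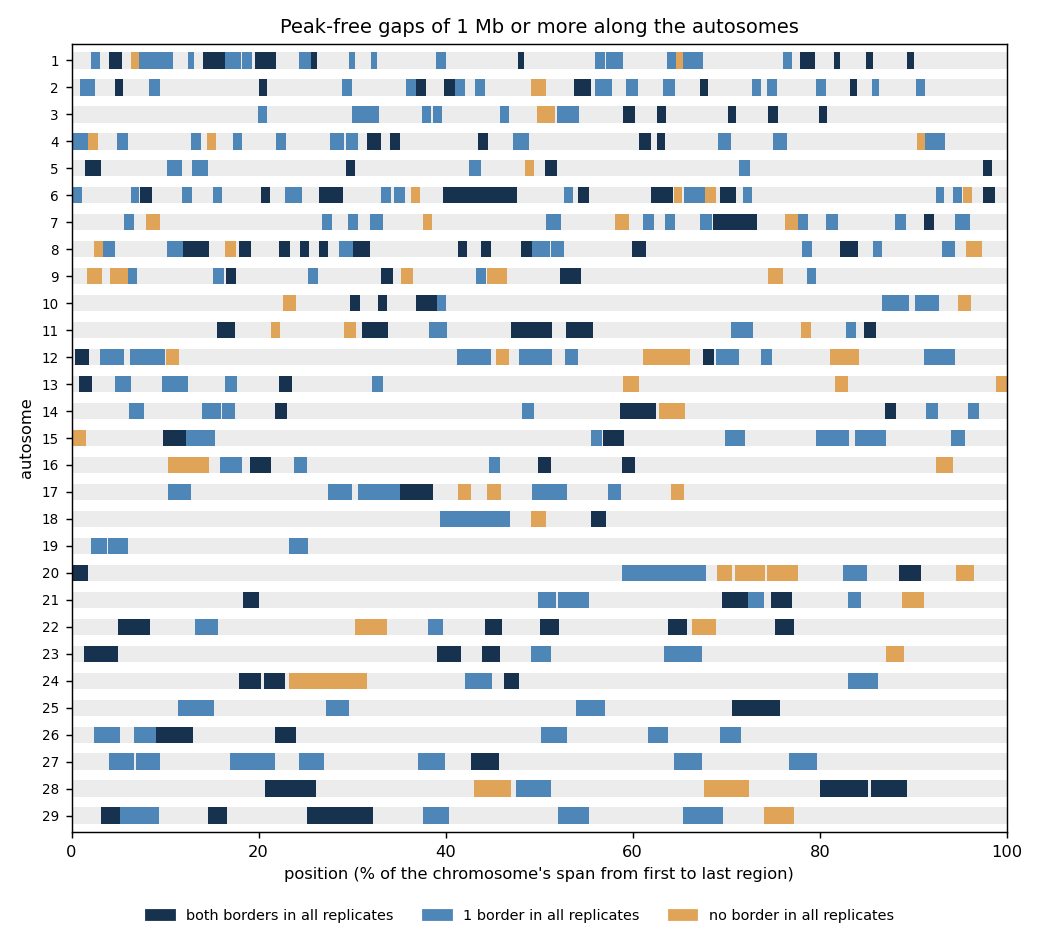
The 344 gaps drawn to scale on the 29 autosomes, with each autosome shown in grey from its first to its last region (horizontal axis, % of that span). Colours give the borders, with 112 gaps bounded by regions of all replicates on both sides (dark), 170 on 1 side (mid blue) and 62 on neither (ochre).

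When a gap could be interrupted only by a region present in each of the 3 lists, 454 gaps covered 32.7% of the autosomal span. Of these, 316 held at least 1 of the 344 gaps, 21 held at least 2, and 138 held none. The longest of them were picked out after the values were seen. The first was 6.59 Mb, on chromosome 9 from 913834 to 7504928, and contained 3 of the gaps listed here and 4 weaker regions. It was followed by a stretch of 6.48 Mb on chromosome 20 (49533387 to 56014914) with 6 weaker regions and one of 5.97 Mb on chromosome 1 (100878621 to 106849786) with 2. The 5.71 Mb gap on chromosome 6 remained as it was. Regions of fewer than 3 replicates were not spread evenly, with 0.842 per Mb inside these 454 stretches and 4.12 per Mb outside. The 112 stretches that held none are, by definition, the 112 gaps with both borders in all replicates.

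A measure that the choice of gaps did not use is the presence of peaks in a list left out of it. Gaps of 1 Mb or more were therefore defined from each pair of lists, and the peaks of the remaining list were counted in them. With replicate 1 left out, 280 of 376 gaps (74.5%) held none of its peaks. The numbers were 290 of 366 (79.2%) for replicate 2 and 287 of 358 (80.2%) for replicate 3. The left-out list had 119, 87 and 79 peaks inside the gaps, or 0.196, 0.144 and 0.135 per Mb (0.158 ± 0.0325, SD, n = 3), against 11.3, 9.60 and 11.1 per Mb in the rest of the span (10.7 ± 0.932). Peaks were thus 58.0, 66.6 and 81.8 times as dense outside as inside. A peak inside such a gap can have no counterpart in the other lists, however, so the closer comparison, added after these values were seen, is with peaks of the left-out list outside the gaps that touched no region of the other lists. These numbered 2423, 604 and 1548, or 1.28, 0.318 and 0.807 per Mb. They were 6.55, 2.21 and 5.97 times as dense as the peaks inside the gaps (4.91 ± 2.36, SD, n = 3), so that the direction held in 3 of 3 rotations with a much smaller ratio. The rotations share lists with each other, so no test is given.

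The peaks found inside had median scores of 73.2 for replicate 1, 60.2 for replicate 2 and 61.8 for replicate 3. The peaks outside without a counterpart had median scores of 70.3, 62.4 and 65.2. In percentiles the medians were 11.0, 5.91 and 6.98 inside and 9.96, 6.98 and 8.52 outside, with no common direction. The median widths were 945, 724 and 679 bp inside and 1122, 810 and 786 bp outside, narrower inside in 3 of 3 rotations. Scores under 100 made up 78.2%, 81.6% and 89.9% of the peaks inside and 79.1%, 89.4% and 87.0% of those outside. The strongest peaks inside were looked up after the values were seen. In replicates 1 and 3 they scored 433 (chromosome 1, 93788408 to 93791610) and 247 (chromosome 4, 110210300 to 110211787). An exception was a peak of replicate 2 on chromosome 19 from 1805691 to 1806352, which was only 662 bp wide but scored 1678, which ranked it at percentile 77.6 among the peaks of replicate 2. Without replicate 2 this stretch was a gap of 1.33 Mb, and the peak is also the left border of the interval of 996788 bp that just missed the limit. Peaks lay within 100 kb of a gap edge in 26.1%, 11.5% and 29.1% of cases, while 12.4%, 12.1% and 12.3% of the gap sequence lies there, so in replicate 2 they were not gathered at the edges.

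The 344 gaps were bordered by 646 regions, 42 of which lay between 2 gaps. Of these border regions, 57.6% had a peak in all 3 replicates, 15.8% in 2 and 26.6% in 1. Among all autosomal regions, 68% had a peak in all replicates, and among the 23215 regions that bordered no gap the shares were 68.3%, 11.4% and 20.3%. The 172 single-replicate border regions came from replicate 1 in 64 cases, from replicate 2 in 54 and from replicate 3 in 54. Among the 4711 other regions of a single replicate, replicates 1, 2 and 3 gave 2491, 641 and 1579. The difference in full support, border minus other regions, was -10.7 percentage points with all lists. It was -9.60 without replicate 1 and -9.16 without replicate 3 but -4.64 without replicate 2, the replicate with the fewest peaks. Full support then means a peak in both of the 2 lists used, with regions, gaps and borders defined anew.

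Whether a border is seen again in a list that took no part in its choice was read from the same rotations. The left-out list had a peak in 79.7%, 68.1% and 76.8% of the borders defined without it for replicates 1, 2 and 3, against 88.5%, 73.4% and 83.7% of the other regions, lower in 3 of 3 rotations. Most of the borders present in both lists used were seen again, at 96.4%, 84.8% and 95.7% (92.3% ± 6.46, SD, n = 3), against 98.5%, 89.0% and 97.4% of other such regions (94.96% ± 5.21), again lower in 3 of 3 rotations. Of the borders present in a single list used, 46.2%, 19.9% and 40.5% were seen again (35.5% ± 13.8), against 56.1%, 15.2% and 42.5% of other such regions (37.96% ± 20.8), lower for replicates 1 and 3 and higher for replicate 2. Within the rotations, the difference between border and other regions was -2.13, -4.14 and -1.73 percentage points where both lists had the region (-2.67 ± 1.29, SD, n = 3). Where a single list had it, the difference was -9.97, 4.68 and -2.01 points (-2.43 ± 7.34), within the spread between rotations.

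Border regions also had lower scores and were narrower. Their median score percentile, the mean over the lists with a peak in the region, was 27.1 against 40.9 in the other regions, with quartiles of 12.1 and 55.8 against 17.2 and 71.5. The median width was 1609 bp against 2054 bp. In each list alone, with its own gaps, the borders lay at median percentiles of 39.3, 39.4 and 40.8 against 50.6, 50.8 and 50.6 for other regions, a difference of 10.8 ± 0.924 percentile points (SD, n = 3). The borders of each list were also 0.870 ± 0.00350 times as wide as its other regions. Within the regions present in each list the medians were closer, at percentile 50.4 against 60.4 and 2429 against 2647 bp. The contrast was smaller without the weak peaks. When the weaker 50% of each list was set aside, the median percentiles of border and other regions were 1.72 points apart. Percentiles kept their ranks in the full lists, so both groups were then confined to the upper 50% and some shrinkage is built in. The borders were 1.02 times as wide as the others, which turns the direction of the width.

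**Figure D3:**
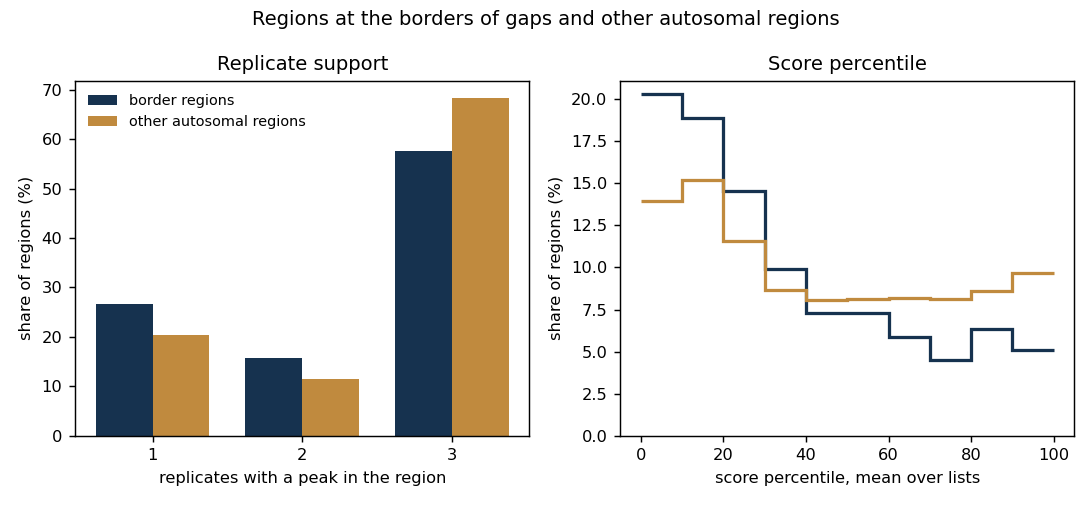
Left, share of regions (%) with a peak in 1, 2 or 3 replicates, and right, share of regions (%) in each 10-point class of the score percentile (mean over the lists with a peak), for the 646 border regions (dark) and the 23215 other autosomal regions (ochre). The border regions have 57.6% against 68.3% of regions in all replicates and more regions in the lowest classes of the score.

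The regions next outside the borders were in between, counting only those that did not themselves border another gap. The values with such regions included were not computed. Their median score percentile was 33.8, their median width 1870 bp, and 65.6% of these 524 regions had a peak in all replicates.

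Strong regions did occur at the borders. At 23 of them (3.56%) the region was at least 5 kb wide, against 6.71% of other regions, and 18 (2.79%) reached a score of 3100 or more in all replicates, against 5.27%. Many strong peaks are tied at 3100, and their order is therefore unknown. The widest border region with a peak in all replicates lay on chromosome 20 from 197697 to 206513, with 8557, 6909 and 8180 bp covered by peaks in replicates 1, 2 and 3. It was followed by regions on chromosome 1 (125879064 to 125887421, 8358 bp), chromosome 7 (77316503 to 77324732, 8230 bp), chromosome 6 (47818051 to 47825969, 7919 bp) and chromosome 14 (13770232 to 13777455, 7224 bp). The regions on chromosomes 7 and 6 are the left borders of the gaps of 3.87 and 3.70 Mb described above. The highest mean score percentiles, 93.8 each, belonged to border regions on chromosome 5 (88013089 to 88018826), chromosome 2 (6914238 to 6918168) and chromosome 8 (16686788 to 16690322), followed by 15 border regions tied at 92.7 with a score of exactly 3100 in all lists, of which those on chromosomes 20 and 1 are the widest. The regions on chromosomes 5, 2 and 8 stood above the tied ones in replicate 2 only, where they scored 3155, 3136 and 3108. These ranks hold among the border regions, since the widest of the other regions was 23669 bp wide and 1224 of them reached 3100 or more in all lists.

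Border strength showed no steady relation to gap length. The median score percentile over both ends was 27.5 for the 205 gaps under 1.5 Mb, 20.9 for the 68 gaps of 1.5 to 2 Mb and 31.7 for the 71 longer ones. The shares of ends in all replicates were 56.8%, 54.4% and 61.3%. The 42 regions between 2 gaps had narrow peaks as well (median width 1366 bp, median score percentile 27.8), and 22 of them (52.4%) were present in each list.

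Gaps lay next to other long intervals. The interval beyond a border had a median length of 192 kb, against 28.7 kb for all autosomal intervals, and 12.2% of these neighbours were themselves gaps of 1 Mb or more, against 1.44% of all intervals. In each list alone, the corresponding shares were 14.6%, 15.0% and 13.8% of the neighbours (14.5% ± 0.618, SD, n = 3) against 1.75%, 2.29% and 1.91% of all intervals. A neighbouring interval under 100 kb was found at 36.7% of borders, where 77.0% of all intervals are that short. In total, 77 gaps (22.4%) fell into 35 runs of gaps separated by single regions, which were 29 pairs, 5 runs of 3 and 1 run of 4.

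The run of 4 lay on chromosome 1 from 22475458 to 28941580 and consisted of gaps of 1.45, 2.16, 1.64 and 1.21 Mb. The first region between them (23925756 to 23928025) had scores of 530, 253 and 705 in replicates 1, 2 and 3. The second (26085653 to 26089245) was stronger, with scores of 2052, 775 and 1714. The third (27731526 to 27732036) was 511 bp wide and had a peak in replicate 2 only, with a score of 53.9. In the 6.47 Mb of this run, the regions covered 6374 bp.

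Beyond the borders, the density of regions stayed low over megabases. It was 8.34 regions per Mb in the first 50 kb outside a border region, 5.42 from 50 to 100 kb, 5.17 from 100 to 250 kb and 5.22 from 250 to 500 kb. It then rose to 6.25 per Mb up to 1 Mb, 7.30 from 1 to 2 Mb and 7.59 from 2 to 3 Mb. The mean over the autosomal span was 9.53 per Mb, so that the surroundings of the gaps were below the mean at 3 Mb as well. That mean was not weighted for the chromosomes on which the gaps lie, and those differ in density. The surroundings also take in neighbouring gaps. The same count beside all autosomal regions gave 28.2 per Mb in the first 50 kb and 13.6 from 2 to 3 Mb. That count weights stretches by the regions in them and so favours dense ones.

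**Figure D4:**
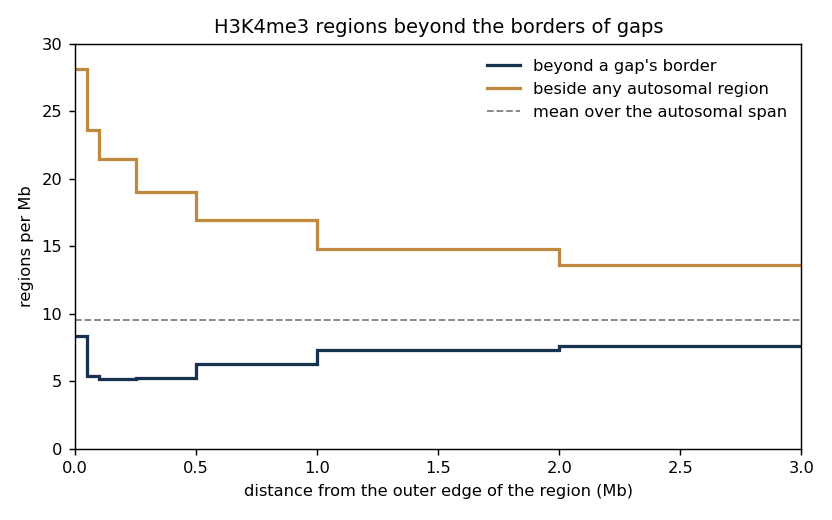
Density of H3K4me3 regions (regions per Mb) against the distance from the outer edge of the border region (Mb), beyond the borders of the 344 gaps (dark) and beside all autosomal regions (ochre), with the mean over the autosomal span as a dashed line. Beyond the borders the density is 8.34 per Mb in the first 50 kb, 5.17 per Mb from 100 to 250 kb and 7.59 per Mb at 2 to 3 Mb, below the mean of 9.53 per Mb at each distance.

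Gaps were found on each of the 29 autosomes, from 3 on chromosome 19 to 29 on chromosome 1. Chromosome 1 was followed by chromosome 6 with 26, chromosomes 2 and 8 with 23 each and chromosomes 4 and 7 with 19 each. The 5 highest numbers summed to 120 gaps, 34.9% of all. Because long chromosomes have room for more gaps (Spearman's rho of 0.827 between number and span over 29 autosomes), the share of the span is the better measure, and rho with the span was then 0.200. These coefficients are across chromosomes of the same libraries and carry no p.

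The share of the span in gaps was highest on chromosome 6, with 37.0% in the pool and 38.3%, 44.6% and 41.3% in replicates 1, 2 and 3 alone. Chromosome 12 followed with 35.4% in the pool and 39.5%, 44.0% and 43.5% in the lists alone. Their means over the lists, 41.4% ± 3.16 and 42.3% ± 2.45 (SD, n = 3), stood in the opposite order and did not differ beyond that spread. Chromosome 1 had 31.2% in the pool and 35.0%, 41.2% and 38.1% in the lists alone. These 3 autosomes had 26, 17 and 29 gaps, which summed to 43.8, 32.2 and 49.3 Mb. The lowest shares were 5.86% on chromosome 19 (9.85%, 8.51% and 9.87% alone), 10.7% on chromosome 18 (13.0%, 19.0% and 15.1% alone) and 11.7% on chromosome 5 (16.3%, 18.9% and 19.7% alone). By the mean over the lists, chromosome 13, with 14.0% in the pool and 14.6%, 15.3% and 16.6% alone, lay below chromosomes 18 and 5. The highest pooled share was 6.31 times the lowest.

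The autosomes were ordered much alike by each list. Over the 29 autosomes, Spearman's rho was 0.945 for replicates 1 and 2, 0.933 for 1 and 3 and 0.921 for 2 and 3, given without a p because the lists share the chromosomes' gene and base content. Ordered by the mean over the lists, however, 27 of 28 neighbouring pairs had overlapping ranges. Chromosome 19, with 9.41% ± 0.781 (SD, n = 3), was the only autosome whose lists all lay beyond those of its neighbour. That neighbour was chromosome 13, with 15.5% ± 0.990. Such ranges ignore that the same 3 lists were measured on each autosome. Compared within each list, chromosome 8 lay above its neighbour, chromosome 7, in each (36.0%, 39.3% and 34.9% against 35.3%, 32.7% and 32.9%). Chromosome 12 lay above its neighbour, chromosome 6, in replicates 1 and 3 only. These pairs were picked after the values were seen.

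**Figure D5:**
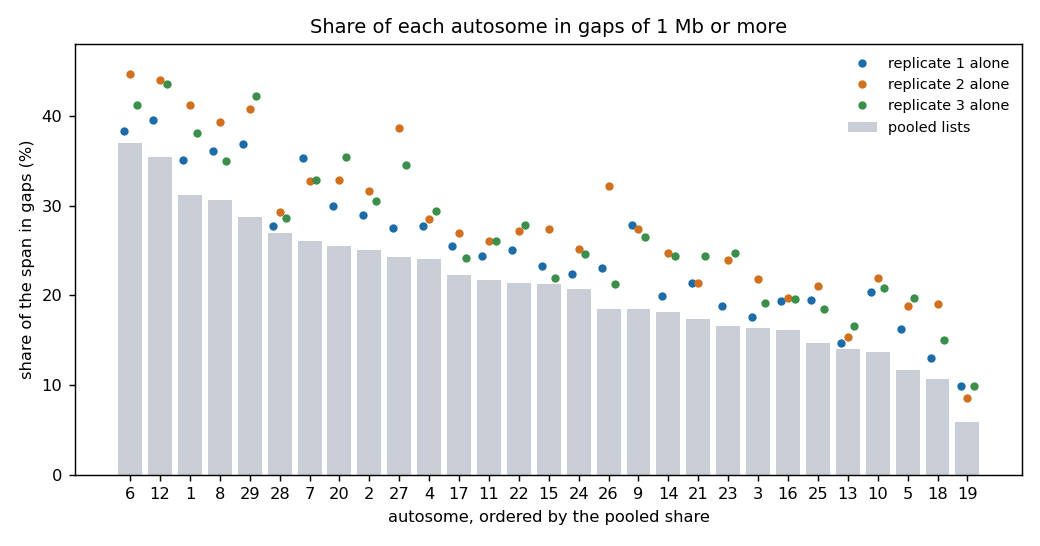
Share of each autosome's span in gaps of 1 Mb or more (%), with bars for the pooled lists and points for each replicate alone, ordered by the pooled share. Shares run from 37.0% on chromosome 6 to 5.86% on chromosome 19, and all points of chromosome 19 lie below those of every other autosome.

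The share in gaps did not simply mirror the density of regions, as rho between share and density was -0.608 over the 29 autosomes. Chromosome 20 had the fewest regions per Mb of the autosomes (5.66), 25.5% of it lay in gaps and outside them its density was 7.59 per Mb. Chromosome 9, with 6.16 regions per Mb, had 18.5% of its span in gaps in the pool but 27.8%, 27.4% and 26.5% in replicates 1, 2 and 3 alone, and outside the pooled gaps its density was 7.56 per Mb. Chromosomes 7 and 29 had 12.4 and 11.7 regions per Mb, above the autosomal mean, yet 26.1% and 28.8% of them lay in gaps, and outside the gaps they reached 16.8 and 16.5 regions per Mb. As gaps hold no region, each density outside them follows from the density over the whole span and the share in gaps. These chromosomes were chosen after the values had been seen.

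Along the chromosomes, gaps were fewest near the end with the highest coordinates. With the span of each autosome divided into 10 equal classes, 25.7% of the first class lay in gaps, and 21.0% to 25.1% of each following class up to 80% of the span. The share was 16.6% from 80% to 90% of the span and 13.3% in the last class. These last classes held 13.4% and 16.0% of the autosomal regions, while no other class held more than 9.61%. In the lists alone, the share in the last 20% of the span was 17.9%, 21.1% and 19.4% in replicates 1, 2 and 3 (19.5% ± 1.60, SD, n = 3) against 27.8%, 30.6% and 29.5% in the first 80% (29.3% ± 1.40), lower in each list. In the pool it was lower on 22 of 29 autosomes, and 9 of them had no gap sequence there. Of the 7 autosomes where it was not lower, chromosomes 28, 15, 10 and 20 had 44.8%, 40.3%, 34.2% and 34.0% of their last 20% in gaps against 22.4%, 16.4%, 8.50% and 23.4% of their first 80%. On chromosomes 7, 14 and 21 both parts were close, with 26.1%, 18.8% and 18.6% in the last 20% and 26.1%, 18.0% and 17.1% in the first 80%.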

How the data were processed

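H3K4me3 was measured by ChIP-seq in 3 labelled biological replicates, each a pool of approximately 11 blastocysts with its own input library. The pools came from 2 IVF rounds, per the study, and which of them share a round is not given in the sources used here. The authors aligned 51-base single-end reads to UMD 3.1.1 (bosTau8) without scaffolds using Bowtie 1.2.3. Duplicate reads were discarded with Picard, and MACS (version not given in the sources used here) called the peaks of each replicate against its own input. The deposited lists give the start and end of each peak and a score, whose scale is not given in the sources used here. The range, from 50 to over 3100, resembles transformed p-values of MACS, and the score was used only as a percentile within a list, with tied scores sharing their mean rank. Reads per peak are unknown, so no error is given for a single peak, and a stretch without peaks means none called at that depth. Replicate 2 had the fewest mapped reads, per the study.

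Peaks were joined with Python 3.11.15 and pandas 2.3.3, which gave the same 24746 regions as bedtools 2.31.1 merge. Figures were drawn with Matplotlib 3.10.9. The span of a chromosome runs from its first to its last region, since chromosome lengths were not used. Values over replicates are mean ± SD of the measure in each list alone. The gap count was tested on simulated lists with planted gaps, in which replicate 1 held each region at its full width. Borders present only in another list were therefore not tried. The rule for gaps and the measures were chosen with earlier results of these data known. The loci named are the 10 longest gaps, the intervals next to the limit, the longest run, the widest and highest-scoring borders, the gaps whose length changed most and the autosomes at either end of the order. Other named loci are said to be chosen after their values were seen, as are chromosomes 7, 9, 10, 15, 20, 28 and 29. Alternatives covered the replicates used, replicate support, score filters, joining, peak numbers and the length limit. Input libraries, gene content and sequence were not analysed here.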

Additional observations from a re-analysis of the deposited data

How the results depend on the processing

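No paired analysis was possible because the inputs entered only through the authors' peak calling and have no list of their own.

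The number of gaps stayed within 1.5 times the 344 reported under each alternative except a limit of 500 kb (1037 gaps), a limit of 2 Mb (71) and the use of the stronger 50% of each list (523). Leaving out 1 replicate gave 358 to 376 gaps. It gave 23.4% to 24.3% of the span, a median length of 1.38 to 1.40 Mb, 65.9% to 74.3% of border regions with a peak in all lists used, a median border percentile of 29.4 to 32.9 and a median border width of 1497 to 1702 bp. For border against other regions it gave differences in median percentile of -15.0 to -12.8, width ratios of 0.783 to 0.827 and differences in full support of -9.60 to -4.64 percentage points, the last without replicate 2.

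With regions of at least 2 replicates, the share of the span was 28.4%, the median length 1.45 Mb, the share of borders in all replicates 81.1%, the border percentile 42.5 and the border width 2186 bp. With regions of all replicates, these were 32.7%, 1.49 Mb, percentile 53.7 and 2514 bp, and the support is then 100% by construction. Peaks with a score of at least 100 gave 28.7%, 1.46 Mb, 67.0%, percentile 45.3 and 2258 bp. The stronger 50% of the peaks gave 42.8%, 1.56 Mb, 78.0%, percentile 71.3 and 3155 bp. Equal numbers of 19076 peaks per list gave 25.05%, 1.40 Mb, 66.3%, percentile 36.0 and 1953 bp. Taking the highest percentile in any list put the border median at 33.1.

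The alternatives for border against other regions were added after the values had been seen. Percentiles kept their ranks in the full lists, so a score filter narrows the scale on which their differences are read. The difference in percentile was -11.2 with regions of at least 2 replicates, -6.90 with those of all replicates, -9.43 at a score of at least 100, -1.72 with the stronger 50% and -16.5 when peaks under 1000 bp apart were joined. The width ratio was 0.901, 0.950 and 0.922 under the first 3 of these, 0.743 with joined peaks and 0.851 with equal peak numbers, and it turned to 1.02 with the stronger 50%. The difference in full support was -4.62 points with regions of at least 2 replicates and -3.04 with the stronger 50%. It was -9.05 at a score of at least 100, -12.6 with joined peaks and -9.61 with equal peak numbers. Depth limits all of these values, since a peak below the caller's threshold at the depth of a library leaves no trace in its list.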

Other observations

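Chromosome X, which was not part of the autosomal gaps, had 24 intervals of 1 Mb or more with 25.8% of its span in the pool and 31.0%, 32.3% and 33.2% in replicates 1, 2 and 3 alone. This lies among the autosomal shares, next to chromosomes 20 (25.5%) and 7 (26.1%).

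The sequence before the first region of a chromosome was left out of the gaps. It was longer than 1 Mb on 2 autosomes, chromosome 19 with 1.47 Mb and chromosome 18 with 1.02 Mb, and on chromosome X with 1.09 Mb. Chromosomes 19 and 18 are also the autosomes with the smallest shares of their span in gaps. Whether the assembly holds unresolved sequence there was not tested.

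Gaps close to each other but separated by more than a single region are missed by a count of runs. When gaps under 20 kb apart were strung together, 37 stretches held 82 gaps, and 7 of these stretches were at least 5 Mb long. After the 9.42 Mb on chromosome 6, the next was 7.08 Mb on chromosome 1 from 10238740 to 17320959, with 3 gaps and 3475 bp of regions. This grouping was chosen after the gaps had been seen.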
